A study of Mus musculus with 2 samples.

Results

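The genes described here encode chaperones, folding enzymes and ER-associated degradation (ERAD) factors of the endoplasmic reticulum (ER), with the translocation subunits that feed the ER and the sensors that respond to it. They were chosen by name, as a list of 51 genes, and matched to the probe sets of the array that named each gene alone. Of the 51 genes, 50 had such a probe set, out of 18193 genes named by the array in this way. Fkbp10, an ER prolyl isomerase, had none and was not analysed here. Ero1a and Ero1b were listed under their older symbols, Ero1l and Ero1lb.

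The measurements came from 2 Affymetrix mouse expression arrays hybridised with cartilage RNA from wild-type C57BL/6J embryos at E17.5. One array held RNA from round chondrocytes and the other RNA from columnar and hypertrophic chondrocytes, and the labels name no treatment for either group. Each array received a mix of RNA from 3 cartilage plate portions, so the spread between portions and between embryos was not measured. With 1 array in each group there was no replicate, no test and no error on any difference.

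Proteins destined for secretion enter the ER through a translocation channel, lose their signal peptide, receive sugars, form disulfide bonds and fold with the help of chaperones before they are exported. Chains that fail to fold are recognised, pulled back to the cytosol and degraded. Many of these genes are transcribed more when folding capacity is exceeded, through a program known as the unfolded protein response, and chondrocytes carry a heavy folding load because they secrete collagens and proteoglycans.

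The signals were MAS5 values on a linear scale, and a floor of 100.5 was set from 87 probe sets of chemosensory receptor genes, which cartilage should not express. Each difference is log2 of columnar/hypertrophic over round signal, from the brightest probe set of the gene, so a value above 0 means a higher columnar/hypertrophic signal. All 8 chondrocyte markers passed the floor on each array, among them Col2a1 (33307 round, 37936 columnar/hypertrophic), Acan (25528 and 32746) and Sox9 (7815 and 7203). Col10a1, the collagen of hypertrophic cells, had a round signal of 24.2 and a columnar/hypertrophic signal of 10818, Ihh had 143 and 2153, and Pth1r had 1321 and 7666. Mmp13, another marker of hypertrophic cells, had only 22.8 and 11.7, neither of which reached 100.5. Prg4, a marker of joint-surface cells, had 2821 and 45.2, and Wif1 had 2378 and 111. Both arrays thus matched their labels by these genes, apart from Mmp13. Markers of fibrous tissue also differed. All 6 measured of 8 were lower on the columnar/hypertrophic array, among them Col1a1 (1672 and 696) and Col3a1 (26223 and 4986), and the summed signal of the list was 82167 and 26067, while that of the chondrocyte markers was 221953 and 274431. The remaining 2 fibrous markers, and all 5 endothelial markers, were under the floor on both arrays. The summed signal was 228 and 2164 for 5 osteoblast markers, most of it from Sp7 (170 and 1940). Ibsp had 0.94 and 124, above the floor only on the columnar/hypertrophic array, and Dmp1, Phex and Mepe were under it on both arrays. For 6 macrophage and osteoclast markers the summed signal was 1386 and 869. For 5 muscle markers it was 338 and 545, where Tnnt3 alone was higher (63.4 and 429) and the other 4 were lower or under the floor. The part of these marker differences in the values below was not tested, and in such bulk RNA fewer cells of a type and less RNA per cell cannot be told apart.

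Of the 50 ER genes with a probe set, 49 passed the floor on each array and Creld1 on neither. The differences of the 49 ranged from −0.75 for Ero1b to 1.27 for Sec11c, with a median of 0.16, against a median of −0.05 over the 11703 genes above the floor. Of the 49, Sec11c, Sdf2l1, Creld2 and Fkbp11 were higher in the columnar/hypertrophic sample by 2-fold or more, which is 4 genes, against 4.31% of all genes. None was at least 2-fold lower, against 6.37% of all genes. At 1.5-fold, 10 were higher, against 11.7% of all genes, and 1 was lower, against 15.8%.

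Small upward differences were common in the list. A difference above 0 was found for 37 of the 49 genes (75.5%), against 45.1% of all genes, and 12 lay below 0. Many of these genes are abundant in cartilage, and abundant genes as a whole lay higher on this scale. The list was therefore also set beside abundant genes alone. Among genes with a geometric mean signal of at least 1000, 31 of 41 ER genes (75.6%) lay above 0, against 56.2% of the 4261 genes of that kind, and the medians were 0.16 and 0.07. In that range 7 ER genes were at least 1.5-fold higher, against 11.9%, and 0 were that much lower, against 8.26%. A smooth curve fitted to the differences of all probe sets ran from −0.21 at a signal of 200 through −0.003 at 1000 and 0.14 at 5000 to 0.22 at 20000. After this curve was subtracted, 29 of 49 ER genes (59.2%) lay above 0, against 46.6% of all genes, and only Sec11c and Sdf2l1 stayed at least 2-fold higher, 2 of 49 against 4.88% of all genes, so the share of the list past 2-fold was then below that of all genes. Quantile normalization also gave 29 of 49, against 49.6%, and the same 2 genes past 2-fold, against 5.10% of all genes, while setting the array medians equal gave 44 of 49 (89.8%), against 65.5%.

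The spread between probe sets of 1 gene gives a scale for single differences. Over 4825 genes for which more than 1 probe set passed the floor, the SD of the log2 differences within a gene was 0.367, and over 29 of the ER genes it was 0.305. This is a technical spread within the arrays and no measure of biological variation. Of the 49 differences, 19 were above 0 by more than 0.367, against 20.2% of all genes, 3 were below 0 by more than that (Hspa13, Os9 and Ero1b), against 26.4%, and 27 lay within it.

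**Figure D1:**
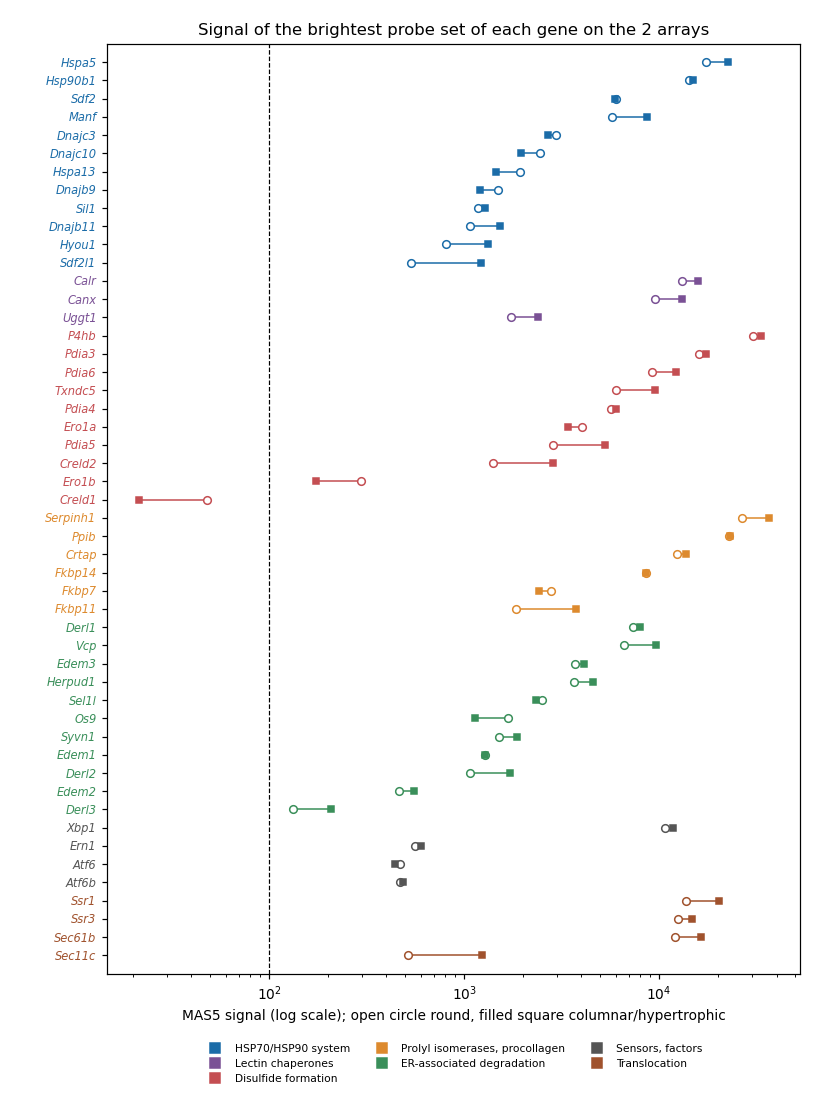
MAS5 signal of the brightest probe set of each ER gene on the round array (open circles) and the columnar/hypertrophic array (filled squares), on a log axis, coloured by role, with 1 array per group and no error bars. The dashed line marks the floor of 100.5. The pairs of symbols lie close together for most genes, Sec11c, Sdf2l1, Creld2 and Fkbp11 are at least 2-fold apart, and Creld1 lies under the floor.

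**Figure D2:**
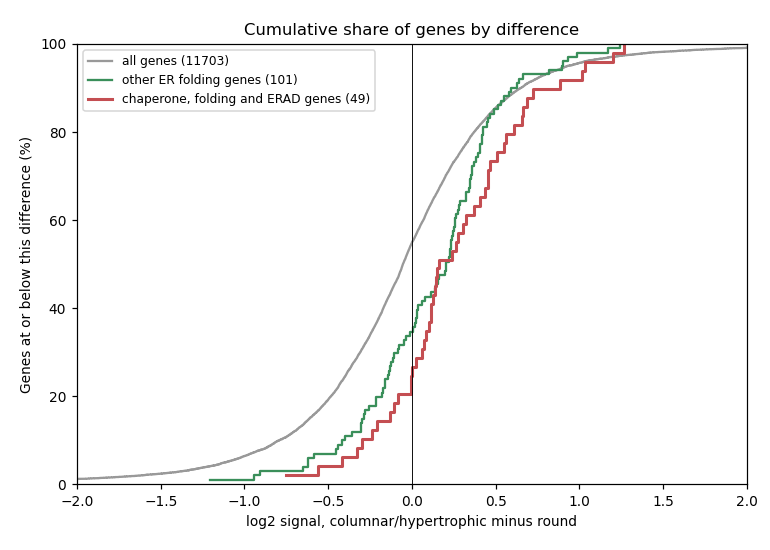
Cumulative percentage of genes at or below each log2 difference (columnar/hypertrophic minus round), for the 49 ER genes, 101 other ER folding genes and all 11703 genes above the floor. The middle part of the ER genes, from the lower to the upper quartile, runs from 0.00 to 0.51, against −0.39 to 0.28 for all genes, and both ER curves lie to the right of all genes between −1 and 0.

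The promoters of this gene group are shown because many of its members are known targets of the unfolded protein response, which acts through short promoter elements. RefSeq promoter windows of assembly GRCm38.p6, from 250 bases before to 50 bases after each annotated start, matched 43 of the 50 genes. No window was matched for Atf6, Derl1, Hspa13, Hyou1, Manf, Sec11c and Sil1. Exact letters were searched on both strands for the ER stress response element (ERSE), which is CCAAT, any 9 bases and CCACG, the shorter ERSE-II, which is ATTGG, any 1 base and CCACG, and a site bound by XBP1 and ATF6, TGACGTGG. The elements ERSE and ERSE-II share CCACG but no match overlapped another.

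An ERSE was found in 10 of the 43 genes (23.3%), against 37 of all 27025 genes with a window. By windows it was in 39 of all 32851 (0.119%). In the next lines each is written 5′ to 3′ in the direction of the element, with the fixed letters in capitals and the 9 free bases in lower case. Its position is given first, with its strand relative to the gene, and all lie upstream of the annotated start.
Calr, chr8:84847075-84847093, opposite strand: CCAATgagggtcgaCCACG
Canx, chr11:50325800-50325818, gene strand: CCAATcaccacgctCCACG
Creld2, chr15:88819520-88819538, opposite strand: CCAATtgaggctcgCCACG
Derl3, chr10:75893242-75893260, opposite strand: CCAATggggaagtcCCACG
Dnajc3, chr14:118937827-118937845, gene strand: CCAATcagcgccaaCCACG
Ero1b, chr13:12565682-12565700, opposite strand: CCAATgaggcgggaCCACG
Hsp90b1, chr10:86705638-86705656, gene strand: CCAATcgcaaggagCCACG
Hsp90b1, chr10:86705533-86705551, opposite strand: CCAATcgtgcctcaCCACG
Hspa5, chr2:34772025-34772043, gene strand: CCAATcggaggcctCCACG
Pdia6, chr12:17266491-17266509, gene strand: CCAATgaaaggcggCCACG
Syvn1, chr19:6046532-6046550, gene strand: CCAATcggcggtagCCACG

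Hsp90b1 was the only one of the 10 with 2 matches. An ERSE-II was found in 2 of the 43 genes, Dnajb11 and Herpud1, against 12 of all 27025 genes, and in 12 of all windows (0.0365%). That of Dnajb11 starts 7 bases after the annotated start of transcription and that of Herpud1 ends 42 bases before it, and all 11 bases are in capitals.
Dnajb11, chr16:22857852-22857862, gene strand: ATTGGCCCACG
Herpud1, chr8:94386377-94386387, gene strand: ATTGGGCCACG

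Txndc5 and Vcp carried TGACGTGG, which was present in 193 of all 27025 genes and in 222 of all windows (0.676%). The members of the list were chosen by function, in part for their known place in this response, so the share with an element describes the list and was not tested. The 12 genes with an ERSE or ERSE-II had a median difference of 0.35, with a range from −0.75 to 1.03 and 10 above 0, and 1 of them, Creld2, was at least 2-fold higher. The 30 measured genes whose window held neither had a median of 0.14, a range from −0.56 to 1.20 and 22 above 0, with Sdf2l1 and Fkbp11 at least 2-fold higher. The ranges of both sets overlapped almost in full.

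The 200 bases before the annotated start are printed for 3 genes: Hspa5, whose protein is the main ER chaperone, Creld2, the carrier of an ERSE with the largest difference, and Sdf2l1, whose difference was the largest among genes with a window. They run 5′ to 3′ along each gene's own strand, and capitals mark CCAAT and CCACG, or ATTGG and CGTGG where the letters lie on the opposite strand.
Hspa5, chr2:34771890-34772089, plus strand: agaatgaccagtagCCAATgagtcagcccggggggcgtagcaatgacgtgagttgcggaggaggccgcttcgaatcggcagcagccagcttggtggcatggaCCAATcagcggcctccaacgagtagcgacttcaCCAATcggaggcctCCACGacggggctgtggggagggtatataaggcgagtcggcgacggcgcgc
Creld2, chr15:88819446-88819645, plus strand: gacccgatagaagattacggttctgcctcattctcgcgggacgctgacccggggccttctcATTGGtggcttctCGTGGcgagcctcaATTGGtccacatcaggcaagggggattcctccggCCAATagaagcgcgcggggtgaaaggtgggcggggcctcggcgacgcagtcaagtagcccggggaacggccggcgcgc
Sdf2l1, chr16:17132384-17132583, minus strand: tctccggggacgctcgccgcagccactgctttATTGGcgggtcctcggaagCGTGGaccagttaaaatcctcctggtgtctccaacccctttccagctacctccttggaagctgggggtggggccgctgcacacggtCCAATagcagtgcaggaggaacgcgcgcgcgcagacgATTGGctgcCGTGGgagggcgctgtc

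The Hspa5 stretch held 3 copies of CCAAT and 1 of CCACG, and the CCAAT nearest the start stands 9 bases before the CCACG, which makes the full element. Creld2 also held 3 and 1, with its full element on the opposite strand. Sdf2l1 held 3 copies of CCAAT and 2 of CCACG on either strand, at no point with the spacing of an exact ERSE or ERSE-II, which says only that those letters are not in this window.

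**Figure D3:**
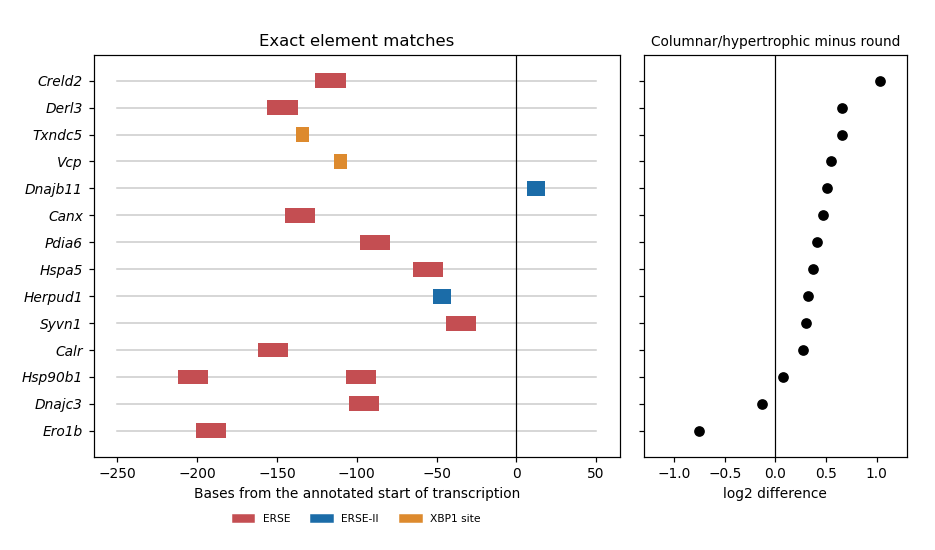
Left, position of each exact ERSE, ERSE-II and TGACGTGG (XBP1 site) match in bases from the annotated start of transcription, for the 14 ER genes with a match. Right, the log2 difference of the same gene (columnar/hypertrophic minus round, 1 array each), with genes ordered by it from Creld2 (1.03) to Ero1b (−0.75).

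The HSP70 and HSP90 chaperones of the ER and their partners made up 12 genes, all above the floor. Their median difference was 0.10, and was −0.012 after the curve against signal was subtracted. Hspa5, which encodes BiP, the HSP70 that binds nascent and unfolded chains, had a round signal of 17485 and a columnar/hypertrophic signal of 22613, a difference of 0.37, and its other 2 probe sets gave 0.23 and 0.12. Hsp90b1, encoding the HSP90 protein GRP94, had 14175 and 14893, a difference of 0.07. Its second probe set gave 0.60, so the size of its difference depended on the probe set. Hspa13, an HSP70 relative of microsomes, ran the other way at 1947 and 1455, a difference of −0.42, and all 4 of its probe sets were below 0.

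BiP releases its clients when its nucleotide is exchanged. The exchange factor gene Hyou1, also a large HSP70, had 805 and 1329, a difference of 0.72, and another probe set gave 0.24. Sil1, the other exchange factor gene, had 1182 and 1287, a difference of 0.12. Manf, whose protein binds BiP and is secreted under ER stress, had 5706 and 8688, a difference of 0.61 (1.52-fold).

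The J-domain proteins that bring clients to BiP split in direction. Dnajb11, whose promoter holds the ERSE-II above, had signals of 1074 and 1529, a difference of 0.51, while Dnajb9 had 1496 and 1214, a difference of −0.30. Dnajc10, a J protein that also reduces disulfide bonds of ERAD clients, had 2464 and 1963, a difference of −0.33, with its other probe sets at −0.17 and 0.01. Dnajc3, a carrier of an ERSE, had 2960 and 2706, a difference of −0.13. Its 5 probe sets ranged from −0.67 to 0.75 and gave no common direction.

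Sdf2l1 and Sdf2 encode related proteins that work with BiP and its J proteins. Sdf2l1 had a round signal of 534 and a columnar/hypertrophic signal of 1227, a difference of 1.20 (2.30-fold), by its only probe set. Sdf2 had 5999 and 5963, a difference of −0.01. The difference of Sdf2l1 exceeded that of Sdf2 by 1.21, and it lay between 1.20 and 1.48 under every scaling tried.

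The lectin chaperones hold glycoproteins by their sugars until they are folded, and all 3 genes lay above 0 with a median of 0.46. Calr, calreticulin, had 13056 and 15798, a difference of 0.28. Canx, its membrane-bound relative calnexin, had 9503 and 13128, a difference of 0.47. Uggt1, the glucosyltransferase that sends unfolded glycoproteins back to these lectins, had 1743 and 2390, a difference of 0.46. All 8 probe sets of the 3 genes above the floor gave a difference above 0, from 0.22 to 0.70, and both Calr and Canx carry an ERSE. After quantile normalization and after the curve was subtracted the median was 0.28.

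Disulfide bond formation was covered by 10 genes, 9 of them above the floor, with a median of 0.14 that turned to −0.026 after quantile normalization and −0.065 after the curve was subtracted. The protein disulfide isomerases with the highest differences were Pdia5, with 2851 and 5261, a difference of 0.88 (1.85-fold), and Txndc5, with 6014 and 9482, a difference of 0.66. The second probe set of Txndc5 gave 0.79, and Pdia5 had only 1. Pdia6, which carries an ERSE, had 9206 and 12219, a difference of 0.41, but its second probe set gave −0.03.

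The remaining isomerase genes differed by less than the spread between probe sets. P4hb, encoding the founding member PDI, which is also a subunit of the collagen prolyl 4-hydroxylase, had 30213 and 33336, a difference of 0.14. Pdia3, the partner of the lectin chaperones, had 16023 and 17349, a difference of 0.11, but its second probe set had 319 and 248, a difference of −0.37. Pdia4 had 5668 and 6015, a difference of 0.09. These 3 differences turned below 0 after quantile normalization and after the curve was subtracted.

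Ero1a and Ero1b encode the oxidases that recharge the isomerases, and both lay below 0. Ero1a had 4020 and 3413, a difference of −0.24, with 2 other probe sets at 0.46 and 0.18 and so no common direction. Ero1b had 295 and 175, a difference of −0.75, the lowest of all 49 genes, and its promoter carries an ERSE. A second Ero1b probe set passed the floor only on the round array, at 113 against 47.4, and the last was under it on each.

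Creld2, an ER protein with EGF-like domains that is induced by ER stress, had a round signal of 1401 and a columnar/hypertrophic signal of 2864, a difference of 1.03 (2.04-fold), by its only probe set. Its relative Creld1 had 48.1 and 21.5, both under the floor, so no difference was computed and the pair could not be compared. Creld2 lies close to the 2-fold limit, at 0.99 after quantile normalization and 0.98 after the curve was subtracted.

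**Figure D4:**
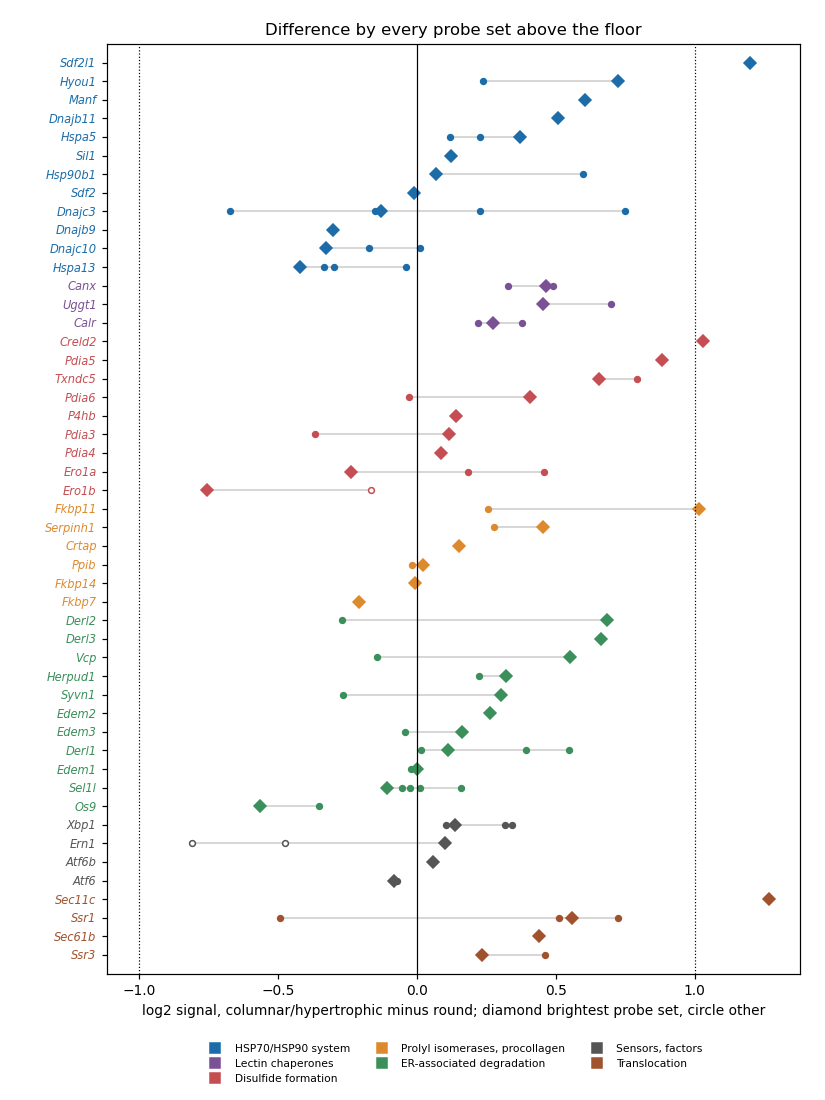
Log2 difference (columnar/hypertrophic minus round) of every probe set above the floor for each of the 49 ER genes, coloured by role, with a diamond for the brightest probe set and circles for the others. Open circles passed the floor on 1 array only and are bounds, and dotted lines mark 2-fold. Probe sets of Hspa13 and Canx fall on 1 side of 0, whereas those of Dnajc3 range from −0.67 to 0.75 and those of Ssr1 from −0.49 to 0.73.

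Probe sets of the same gene often differed in direction. The 50 genes had 113 probe sets, of which 100 passed the floor on either array. Of these 100, 66 lay above 0 and 34 below, 4 were at least 2-fold higher, against 4.27% of all probe sets, and 0 were at least 2-fold lower, against 6%. Of the 31 genes for which more than 1 probe set passed, 17 had all of them on the same side of 0 and 14 did not. The other 18 of the 49 rest on 1 probe set above the floor, among them Sec11c, Sdf2l1 and Creld2.

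Prolyl isomerases and procollagen chaperones, which serve the collagens that cartilage secretes, had a median of 0.09 over 6 genes, which turned to −0.10 after quantile normalization and −0.11 after the curve was subtracted. Serpinh1, encoding HSP47, the chaperone of the collagen triple helix, had 26672 and 36502, a difference of 0.45, and its second probe set gave 0.28. Ppib, encoding cyclophilin B, had 22753 and 23110, a difference of 0.02, and Crtap, its partner in the complex that hydroxylates collagen prolines, had 12395 and 13775, a difference of 0.15. The signals of Col2a1 given above differed by 0.19 over the same arrays.

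The FK506-binding isomerases of the ER did not share a direction. Fkbp11 had 1849 and 3734, a difference of 1.01 (2.02-fold), while Fkbp7 had 2806 and 2428, a difference of −0.21, and Fkbp14 had 8594 and 8567, a difference of −0.00. The Fkbp11 value came from a probe set of the kind that can match several transcripts. Another probe set of Fkbp11 had 332 and 396, a difference of 0.26, and the mean over its probe sets was 0.64, so the 2-fold call of Fkbp11 rested on 1 probe set.

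ERAD was covered by 11 genes, all above the floor, with 9 above 0 and a median of 0.27. Derl2, Derl1 and Derl3 encode derlins, membrane proteins of the channel through which failed chains leave the ER. Derl2 had 1073 and 1726, a difference of 0.69, with a second probe set at −0.27. Derl1 had 7384 and 7993, a difference of 0.11, and its 4 probe sets ranged from 0.02 to 0.55. Derl3, which carries an ERSE, had 132 and 209, a difference of 0.66 close to the floor, where a MAS5 signal is noisy.

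Syvn1, encoding the ubiquitin ligase HRD1, and Sel1l, encoding its partner, form the core of this machinery. Syvn1 had 1512 and 1867, a difference of 0.30, and a second probe set at −0.26, whereas Sel1l had 2525 and 2344, a difference of −0.11, and 5 probe sets between −0.11 and 0.16. Herpud1, a stress-induced organiser of the ligase with the ERSE-II above, had 3653 and 4565, a difference of 0.32, and its second probe set gave 0.22. Vcp, the ATPase that pulls chains into the cytosol, had 6585 and 9650, a difference of 0.55, with a second probe set at −0.14.

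Failed glycoproteins are recognised by the products of Os9 and the 3 Edem genes. Os9, a lectin that delivers trimmed glycoproteins to the ligase, had a round signal of 1682 and a columnar/hypertrophic signal of 1138, a difference of −0.56, and its second probe set gave −0.35, so both were lower. The Edem genes encode mannosidases that mark glycoproteins for disposal. Edem1 had 1283 and 1285, a difference of 0.003, Edem2 had 462 and 556, a difference of 0.27, and Edem3 had 3695 and 4134, a difference of 0.16.

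The sensors and factors of the unfolded protein response lay between −0.08 and 0.14 by their brightest probe sets, with a median of 0.08 over 4 genes that was −0.0088 when probe sets of a gene were averaged. Xbp1, the transcription factor that IRE1 activates by splicing its mRNA, had 10665 and 11744, a difference of 0.14, and its 4 probe sets ranged from 0.10 to 0.34. These probe sets give the total Xbp1 signal, and the spliced form was not measured apart. Ern1, encoding IRE1, had 560 and 600, a difference of 0.10, while 2 further Ern1 probe sets passed the floor only on the round array, at 139 against 76.0 and at 176 against 93.2.

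Atf6, encoding a sensor that is cut to release a transcription factor, had 470 and 444, a difference of −0.08, and Atf6b, its relative, had 469 and 488, a difference of 0.06. Eif2ak3, which encodes PERK and was counted with the other ER genes below, had 2664 and 2576, a difference of −0.05. Activation of these sensors by splicing, cleavage or phosphorylation was not measured by the arrays.

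The 4 translocation genes of the list all lay above 0, with a median of 0.50. It was 0.31 after quantile normalization and 0.29 after the curve was subtracted. Translocation genes outside the list did not share this direction, and Srp54b and Tram2, given below, were lower. Sec11c, encoding a catalytic subunit of the signal peptidase, had a round signal of 516 and a columnar/hypertrophic signal of 1241, a difference of 1.27 (2.41-fold) and the largest of the 49, by 1 probe set. Sec11a, encoding the other catalytic subunit and not on the list, had 6769 and 7932, a difference of 0.23, which is 1.04 below that of Sec11c. Sec61b, a subunit of the translocation channel, had 12118 and 16423, a difference of 0.44. A further probe set that matched both Sec61b and Gm10320 was left out.

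Ssr1 and Ssr3 encode subunits of the translocon-associated complex. Ssr1 had 13796 and 20324, a difference of 0.56, and 2 of its other probe sets gave 0.73 and 0.51. The remaining probe set ran the other way at −0.49. Ssr3 had 12511 and 14737, a difference of 0.24, with a second probe set at 0.46.

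**Figure D5:**
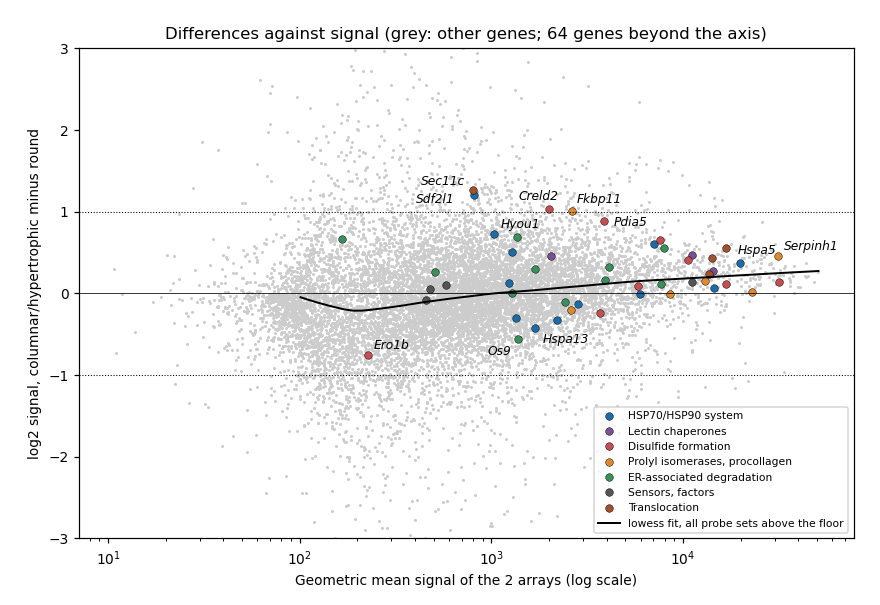
Log2 difference (columnar/hypertrophic minus round) against the geometric mean signal of both arrays on a log axis, for the ER genes (coloured by role) and all other genes above the floor (grey, with 64 genes beyond the axis of 3 in either direction). The black line is the curve fitted to all probe sets, which runs from −0.21 at a signal of 200 to 0.22 at 20000, and dotted lines mark 2-fold.

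Related genes were compared by the gap between their log2 differences. The gap was 0.79 between Hspa5 and Hspa13, 0.81 between Dnajb11 and Dnajb9, 0.57 between Derl2 and Derl1, and 0.55 between Derl3 and Derl1. The Derl3 gap was 0.95 after quantile normalization, 0.90 after the curve was subtracted and 0.27 without probe sets shared by transcripts. The Derl2 gap turned to −0.059 with the mean of probe sets and was 0.29 without probe sets shared by transcripts. For the Ero1 pair it was −0.52, Ero1b minus Ero1a, but −0.21 after quantile normalization and −0.20 after the curve was subtracted, which is within the SD of 0.367 between probe sets of 1 gene. Smaller gaps were found for Pdia6 minus P4hb (0.27), Edem2 minus Edem1 (0.26), Fkbp14 minus Fkbp7 (0.20), Calr minus Canx (−0.19), Edem3 minus Edem1 (0.16), Atf6 minus Atf6b (−0.14) and Pdia4 minus Pdia3 (−0.03). On the scaling used throughout these lay within that SD. The Edem2 gap was 0.368 after quantile normalization and 0.371 after the curve was subtracted. That SD is for single differences, and a gap carries the spread of 2 of them, so it is a narrow scale for any of these gaps. The gap of the Pdia4 and Pdia3 pair turned above 0 after quantile normalization, after the curve was subtracted and with the mean of probe sets.

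A further 102 genes of ER folding, glycosylation, translocation and degradation outside the list were examined for comparison, and 101 were above the floor. Their median difference was 0.20 and 66 lay above 0, against 45.1% of all genes. At least 2-fold higher were 2 of the 101, against 4.31% of all genes, and 1 was at least 2-fold lower, against 6.37%, so both shares were below those of all genes. The higher genes were Dnajb12, a J protein of the ER membrane, with 549 and 1299 (2.37-fold), and Ubxn4, which recruits VCP to the ER membrane, with 1740 and 3914 (2.25-fold). Srp54b, encoding a subunit of the signal recognition particle, had 719 and 312 (2.30-fold lower). Srp54b has near-identical copies that could share its probes, so that value is uncertain. The next lowest was Tram2, a translocation-associated membrane protein, with 3331 and 1732, a difference of −0.94.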

How the data were processed

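Total RNA from cartilage was labelled as cRNA and hybridised to 1 array per group. For 45101 probe sets the authors deposited a linear intensity per array. MAS5 stands in the submitters' processing notes, its version is not given in the sources used here, and RMA, a method on the log scale, stands in the study's methods. The trimmed mean was 500.0 on both arrays, which is how MAS5 scales, so the values were read as MAS5 signals. The median signals were 128 (round) and 105 (columnar/hypertrophic), so the scaling chosen shifts every difference.

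Gene names came from the platform annotation (34958 probe sets with 1 gene, 932 with several, 9211 unnamed), and those with several genes were left out. The floor was the 95th percentile of the chemosensory receptor probe sets over both arrays. Signals under it were raised to it, and the brightest probe set per gene was used. Genes were called by size (2-fold). Any listed ER gene could be named. Of the other ER genes, those past 2-fold or among the 2 largest in either direction were named, and Eif2ak3 and Sec11a were added for the sensors and the signal peptidase pair. The markers Mmp13, Sp7, Ibsp, Dmp1, Phex, Mepe and Tnnt3 were named after their values were seen. Some marker genes, among them Bglap, Hbb-b1, Hbb-bs, Spp1 and Pthlh, were not measured by a probe set naming them alone. The list of ER genes and all other lists were chosen with earlier results of these data known.

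Alternatives were equal medians, quantile normalization, a lowess curve (span 0.3), other floors, the mean of probe sets, dropping probe sets shared by transcripts, and a 1.5-fold limit. Python 3.11.15, pandas 2.3.3, numpy 2.4.6, statsmodels 0.14.6 and matplotlib 3.10.9 were used, and the calculation was tested on simulated data. Protein sequences were not used here.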

Additional observations from a re-analysis of the deposited data

How the results depend on the processing

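With 1 array per group, no array could be left out. No paired analysis was possible because each group has 1 array and the labels carry no replicate numbers. Differences of this size depended on the scaling. With equal array medians, the median difference was 0.44 for the ER genes, against 0.21 over all genes. Before this scaling these were 0.16 and −0.05. By role it was 0.38 for the HSP70 and HSP90 system, 0.74 for lectins, 0.42 for disulfide formation and 0.37 for prolyl isomerases and procollagen chaperones. It was 0.55 for ERAD, 0.36 for sensors, 0.78 for translocation and 0.48 for the other ER genes. Of the listed genes, 6 were then at least 2-fold higher, now with Hyou1 and Pdia5, against 8.22% of all genes. Of the other ER genes, 7 were at least 2-fold higher, against 8.22% of all genes, and 0 lower, against 3.94%. Among probe sets of the listed genes, 9 were at least 2-fold higher, and the share of all probe sets was not computed. With quantile normalization, 2 listed genes were at least 2-fold higher, against 5.10% of all genes. So were 2 of their probe sets, and the share of all probe sets was not computed. The medians were 0.28 for lectins, −0.026 for disulfide formation and −0.10 for prolyl isomerases and procollagen chaperones. They were 0.31 for translocation and 0.087 for the other ER genes. Of these other genes, 4 were at least 2-fold higher, against the same 5.10%. With the lowess curve subtracted, 2 listed genes were at least 2-fold higher, against 4.88% of all genes. Their probe sets past that limit were again 2, and the share of all probe sets was not computed. The medians were −0.012 for the HSP70 and HSP90 system, 0.28 for lectins, −0.065 for disulfide formation and −0.11 for prolyl isomerases and procollagen chaperones. They were 0.29 for translocation and 0.084 for the other ER genes. Of these other genes, 2 were at least 2-fold lower, against 5.40% of all genes. The differences of 10 listed genes changed sign under each of the last pair of scalings (Atf6, Crtap, Derl1, Edem1, Hsp90b1, P4hb, Pdia3, Pdia4, Ppib and Xbp1) and those of 7 under equal medians.

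With no floor, 1 listed gene (Creld1) and 3 other ER genes were at least 2-fold lower, against 16.9% of all genes. In that setting 4 listed genes were at least 2-fold higher, against 9.11%. Of the probe sets of listed genes, 7 were higher and 5 lower, and the share of all probe sets was not computed. Every call added without the floor had a signal under it on at least 1 array. With the mean of probe sets, the medians were −0.0088 for sensors and 0.39 for translocation. In that setting 3 listed genes and 0 other ER genes were at least 2-fold higher, against 3.77% of all genes. Among the listed genes, 5 changed sign (Dnajc3, Edem1, Ern1, Ero1a and Pdia3). Another 4 values moved by more than the probe-set SD, in part for the same genes (Derl2 to 0.21, Ern1 to −0.39, Ero1a to 0.14 and Fkbp11 to 0.64). Without probe sets shared by transcripts, 3 listed genes were at least 2-fold higher, against 4.35% of all genes. In this setting Syvn1 turned to −0.26, Hyou1 was 0.24 and Fkbp11 0.26. At 1.5-fold, 10 listed genes were higher, against 11.7% of all genes, and 1 lower, against 15.8%. Under the other floors tried no listed gene changed sign. Restriction to genes with a signal of at least 1000, and removal of Ero1a and Ero1b, were chosen after seeing the data. Both Ero1 genes lie below 0, so their removal could not change the count of genes at least 2-fold higher and says nothing of its stability. The cause of these shifts was not tested.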
